A study of Mus musculus with 15 samples.

Results

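The 9 genes described here encode proteins that start, restrain or dissolve blood clots at the vessel wall. They are F3, Tfpi, Tfpi2, Thbd, Procr, Vwf, Plat, Plau and Plaur, and they were listed by name, with earlier results of these data known, so counts among them describe these genes and support nothing on their own. They are 9 of the 17892 genes that had values in the deposited count table, and all 9 passed the filter on low counts that left 14853 genes for testing. The Entrez identifiers in the table were 14066 for F3, 21788 for Tfpi, 21789 for Tfpi2, 21824 for Thbd, 19124 for Procr, 22371 for Vwf, 18791 for Plat, 18792 for Plau and 18793 for Plaur.

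RNA was sequenced from PDGFRbeta+ cells isolated from mice. PDGFRbeta is a receptor carried in the brain by pericytes, smooth muscle cells and fibroblasts of the vessel wall. The 15 libraries fell into 4 groups by genotype and treatment. Wild-type mice gave 3 sham libraries (WT sham) and 4 libraries taken 24 h after neonatal hypoxia-ischemia (WT HI). Mice with a microRNA-210 knockout gave 4 sham libraries (KO sham) and 4 libraries taken at the same time after the injury (KO HI). Hypoxia-ischemia combines a reduced blood supply with low oxygen, and a sham animal goes through the handling without the injury. The labels give no age, strain, knockout allele or sham time. They do not say whether replicates came from separate animals or from pools, so the p-values measure only the spread between these samples, which may be technical.

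Clotting outside a vessel starts when tissue factor, the product of F3, binds factor VII and activates factor X. Tfpi encodes the inhibitor of that step, while the thrombomodulin encoded by Thbd and the protein C receptor encoded by Procr turn thrombin towards protein C, an anticoagulant. Von Willebrand factor, stored in endothelial cells, tethers platelets. Fibrin is dissolved by plasmin, which the activators tPA (Plat) and uPA (Plau) release from plasminogen; uPA acts at the cell surface on its receptor, the product of Plaur. In the brain tPA is also made by endothelial cells and neurons, and it is the enzyme used to treat stroke.

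Because the knockout removes miR-210, a microRNA that rises in low oxygen, its mature sequence is shown first with the seed (bases 2 to 8, the part that pairs with targets) in capitals. It is taken from RefSeq, build GRCm38.p6, minus strand of chr7:141221407-141221428.

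mmu-miR-210-3p: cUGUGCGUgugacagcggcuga

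No annotated 3' UTR of the 9 genes held the complement of this seed, of 7 bases or of its first 6, although these UTRs reached lengths from 496 bases for Plaur to 3063 bases for Tfpi. Among the 21022 protein-coding genes with an annotated 3' UTR, 3.3% held the match of 7 bases and 8.79% the match of 6 bases. The absence of these letters says nothing of other forms of pairing.

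RefSeq promoter windows, used for the 250 bases before a start site, matched 5 of the 9 genes. The windows of the 3 genes whose change after injury is described most closely below (F3, Tfpi2 and Plaur) and of Procr are printed 5' to 3' on the gene's strand, build GRCm38.p6, because each held the AP-1 letters TGANTCA. Capitals mark every match, on either strand, to TGANTCA, to GGGCGG (the SP1 letters) or to ACGTG or GCGTG (cores of the hypoxia response element).

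F3, plus strand, chr3:121723287-121723536: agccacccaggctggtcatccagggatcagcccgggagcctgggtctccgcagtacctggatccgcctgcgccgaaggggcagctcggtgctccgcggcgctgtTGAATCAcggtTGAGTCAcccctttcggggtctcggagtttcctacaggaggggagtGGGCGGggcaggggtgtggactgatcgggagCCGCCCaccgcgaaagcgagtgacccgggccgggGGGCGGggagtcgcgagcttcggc

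Plaur, plus strand, chr7:24462233-24462482: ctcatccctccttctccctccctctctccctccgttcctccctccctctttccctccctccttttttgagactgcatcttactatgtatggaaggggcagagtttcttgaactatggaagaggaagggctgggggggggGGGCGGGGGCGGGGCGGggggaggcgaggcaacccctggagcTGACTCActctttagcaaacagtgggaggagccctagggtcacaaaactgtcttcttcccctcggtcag

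Tfpi2, minus strand, chr6:3968376-3968625: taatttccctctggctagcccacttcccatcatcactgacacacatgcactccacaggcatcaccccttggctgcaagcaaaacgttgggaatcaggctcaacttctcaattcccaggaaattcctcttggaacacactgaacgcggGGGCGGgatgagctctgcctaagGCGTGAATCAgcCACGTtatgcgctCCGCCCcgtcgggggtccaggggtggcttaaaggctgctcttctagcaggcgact

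Procr, plus strand, chr2:155750967-155751216: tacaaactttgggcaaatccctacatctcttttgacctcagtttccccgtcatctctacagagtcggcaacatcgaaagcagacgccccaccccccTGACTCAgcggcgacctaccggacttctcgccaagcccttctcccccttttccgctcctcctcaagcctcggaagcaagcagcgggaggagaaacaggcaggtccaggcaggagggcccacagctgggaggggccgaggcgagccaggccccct

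F3 had a pair of AP-1 matches, starting at bases -146 and -135 counted from the start site, and 3 SP1 matches. Plaur had 1 AP-1 match at -69 and 3 SP1 matches starting at -111, -105 and -100, the last 2 of which share a base, and Procr had 1 AP-1 match at -154. In the Tfpi2 window the AP-1 match at -77 overlapped a GCGTG at -80, and an ACGTG on the opposite strand started at -68. Of all 32851 promoter windows of this length, 6.75% held TGANTCA, 32.7% GGGCGG, 28.2% GCGTG and 16.6% ACGTG. Tfpi2 had 2 other windows without any match, and both Tfpi windows held only GGGCGG. None of these windows matched the NF-kappaB motif or the CRE letters TGACGTCA, which 3.9% and 1.55% of all windows held. A match is a description of letters and not evidence of binding.

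Library totals ran from 15436376 to 18118697 expected counts. Pdgfrb itself was read at 860 ± 154 CPM (read counts scaled to library size; SD, n = 3) in WT sham and 925 ± 125 (n = 4) in WT HI. In knockout libraries it was at 516 ± 219 in sham and 356 ± 174 after HI (n = 4 each). Endothelial RNA was also present: Cldn5, a tight junction gene of brain endothelium, was at 1821 ± 146 CPM (n = 3) in WT sham. After HI, 12 of 16 endothelial markers and 6 of 15 pericyte markers were called lower in KO than in WT, and 13 of 13 microglia markers higher. The mean of the endothelial markers was 9.25, 8.63, 9.21 and 8.15 log2 CPM in WT sham, KO sham, WT HI and KO HI, and the mean of the microglia markers was 7.52, 8.22, 7.06 and 8.95. Their summed CPM ran from 10941 to 13985 in WT HI and from 3506 to 7026 in KO HI for the endothelial list, and from 2217 to 5828 and from 7351 to 15862 for the microglia list. The 5 libraries with the highest neuron markers were KO sham 1 and 3, KO HI 2 and 3 and WT sham 2. Their means were 2.89 to 6.34 log2 CPM, and counts are also given without these 5 neuron-high libraries. The cut was by rank, and KO sham 6 came next at 1.89. It leaves only WT sham 1 and 3, KO sham 4 and 6 and KO HI 1 and 4 beside the WT HI libraries. Calls kept or lost there therefore rest on few libraries. In bulk RNA, fewer cells of a type and less RNA per cell cannot be told apart. The level of miR-210 itself was not analysed here, so the knockout labels were not checked against it.

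Injury was followed by higher Tfpi2 and Plaur in WT and by higher Plau, Plaur and Tfpi2 in KO, by edgeR's quasi-likelihood test with adjusted p (Benjamini-Hochberg) below the 0.05 threshold. In WT these were 2 of 9 genes higher and 0 lower, against 1.38% of all genes called higher and 0.444% lower. In KO they were 3 of 9 higher and 0 lower, against 4.88% higher and 2.13% lower. After HI, KO lay below WT for Tfpi2, Vwf, Procr, Plat and F3, which are 5 of 9 genes, with 0 higher, against 6.46% of all genes called lower and 5.96% higher. In sham, 0 of 9 differed by genotype, where 0.00673% of all genes were called higher and 0.00673% lower. There 1 of the 9 had an unadjusted p under 0.05 in edgeR, and DESeq2 and limma-voom also called 0. The median log2 fold change of the 9 genes was 0.89 for HI in WT, 0.14 for HI in KO, -0.40 for genotype in sham and -1.27 for genotype after HI. Over all genes tested these medians were -0.01, -0.06, 0.05 and 0.06. Without the 5 neuron-high libraries the calls were 3 of 9 higher in WT, 3 of 9 higher in KO and 4 of 9 lower in KO than in WT after HI. Of all genes, 3.21%, 8.95% and 10.9% were called in these directions there, and 1.92%, 7.88% and 12.7% in the opposite ones. When only the groups compared entered the fit, 6 of 9 were called higher in WT, against 9.1% of all genes, 0 of 9 in KO, against 0.111%, and 4 of 9 lower in KO than in WT after HI, against 6.83%. Calls in the opposite direction were 0 of 9 in each, against 8.03%, 0% and 6.18% of all genes. The 4 comparisons share their groups: the genotype comparison after HI uses the same HI libraries as the injury comparisons.

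**Figure D1:**
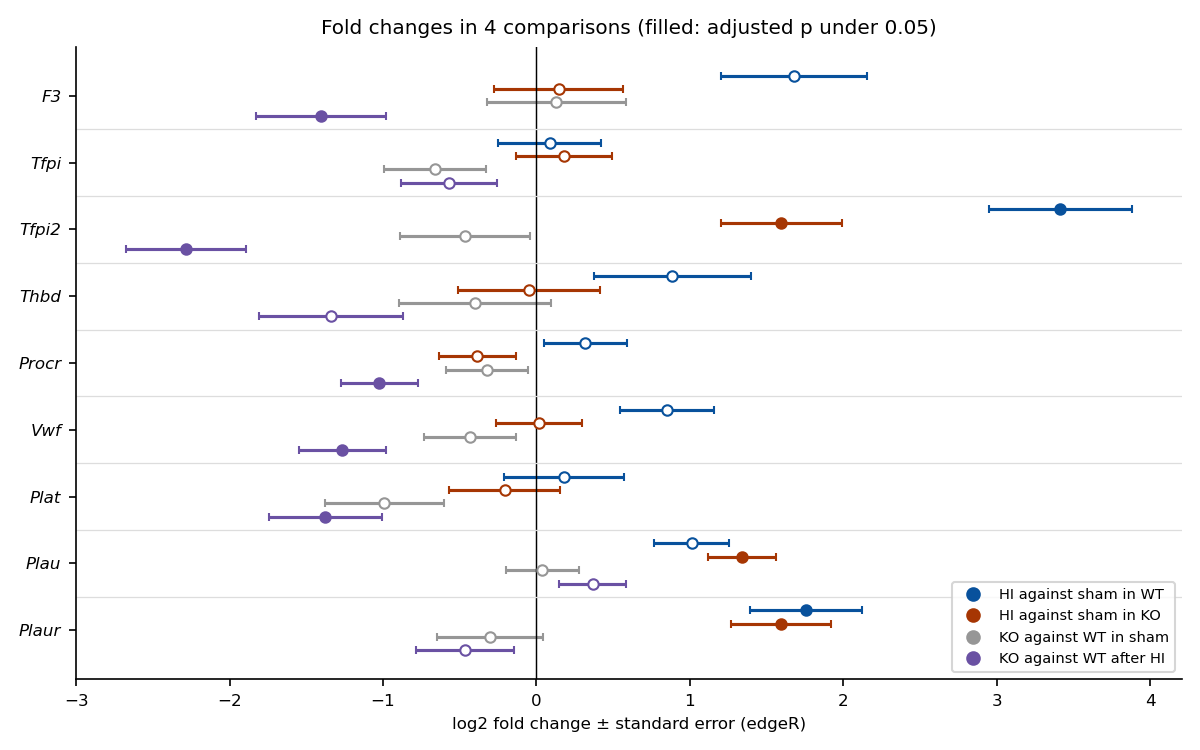
Log2 fold change (x axis) of the 9 genes (y axis) in 4 comparisons, with bars for the standard error of the edgeR fit and filled points for adjusted p under 0.05. Tfpi2 has the point farthest right, 3.41 for HI in WT, and the point farthest left, -2.28 for KO against WT after HI, while all 9 grey points for sham are open.

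F3, the trigger of clotting, read higher in every WT HI library than in WT sham, and KO sham 1 came near the lowest WT HI library. Its CPM was 9.55, 15.1 and 13.4 in WT sham replicates 1 to 3, and 24.2, 10.4, 6.48 and 14.5 in KO sham 1, 3, 4 and 6. In WT HI 1, 2, 4 and 5 it was 47.3, 25.3, 45.0 and 44.8, and in KO HI 1 to 4 it was 7.46, 9.84, 19.5 and 24.5. All 4 WT HI libraries lay above the 3 WT sham libraries and above the 4 KO HI libraries, though WT HI 2 and KO HI 4 nearly met. The KO HI libraries lay within the spread of KO sham except for the highest, which was just above KO sham 1.

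After HI, F3 was lower in KO than in WT by a log2 fold change of -1.40 ± 0.42 (SE, edgeR adjusted p = 0.0470, n = 4 and 4). The injury difference was 1.68 ± 0.47 in WT (adjusted p = 0.0973, not called) and 0.14 ± 0.42 in KO (adjusted p = 0.887). The genotype call was close to the threshold. It was lost when any 1 of 11 libraries was left out (WT sham 1, 2 or 3, KO sham 3 or 6, WT HI 1, 4 or 5, KO HI 1, 2 or 3), with values from -1.54 to -1.17 and adjusted p from 0.0578 to 0.120, and without the 5 neuron-high libraries (-1.37, adjusted p = 0.0834). With only the 2 HI groups in the fit it was -1.40 (adjusted p = 0.0514), also not called. The genotype difference was called by DESeq2 (-1.41, adjusted p = 0.00844) and by limma-voom (-1.53, adjusted p = 0.0207). The rise in WT, not called by edgeR, was called by DESeq2 (1.69, adjusted p = 0.00956) but not by limma-voom (1.66, adjusted p = 0.0734). With the endothelial marker mean as a covariate the rise in WT was 1.67 (edgeR adjusted p = 0.0302) and the genotype difference after HI -2.18 (adjusted p = 0.0149). With the microglia marker mean as a covariate that genotype difference was 0.21 (adjusted p = 0.838). After HI the endothelial mean was 7.43 to 8.44 log2 CPM in KO and 9.08 to 9.40 in WT. The microglia mean was 8.52 to 9.63 in KO and 6.64 to 8.05 in WT. Since neither overlapped, genotype differences after HI with a covariate, here and below, cannot separate genotype from the markers. A call lost there does not show that cell makeup accounts for it. The microglia mean of KO sham, 7.70 to 8.50, did not overlap that of KO HI either. Injury differences in KO with the microglia covariate, given below, therefore cannot separate injury from these markers, whether a call is kept or lost.

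**Figure D2:**
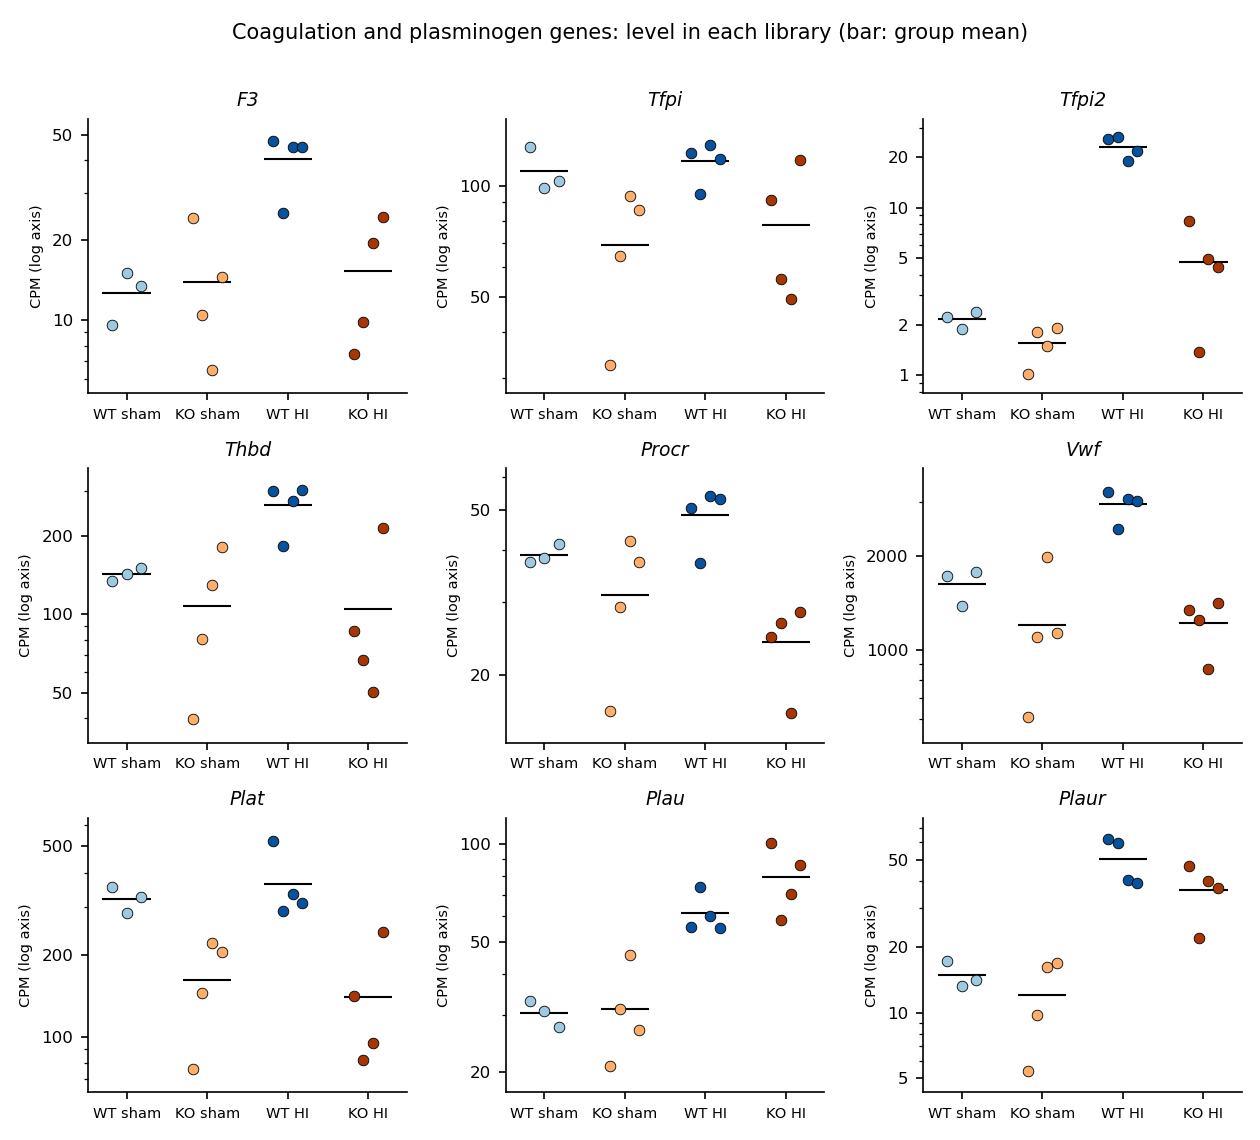
Level of each of the 9 genes in each of the 15 libraries, in CPM on log axes, by group; the short line is the group mean. Tfpi2 is at 19.0 to 26.3 CPM in WT HI and at 1.38 to 8.31 in KO HI, and Plau and Plaur are above sham in all 8 HI libraries of their own genotype.

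Tfpi, the inhibitor of the tissue factor complex, did not change past the threshold in any comparison. Its CPM was 127, 98.4 and 103 in WT sham, 32.6, 64.3, 93.6 and 86.0 in KO sham, 123, 95.0, 129 and 118 in WT HI, and 91.3, 55.7, 49.4 and 117 in KO HI, in the order of replicates used for F3. The WT groups overlapped, and every KO sham library lay below every WT sham library. The genotype difference was -0.66 ± 0.33 in sham (edgeR adjusted p = 0.477) and -0.57 ± 0.31 after HI (adjusted p = 0.228). With the endothelial covariate, HI in KO gave 0.72 (adjusted p = 0.00988), compared with 0.18 without it (adjusted p = 0.803).

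Tfpi2 encodes a related inhibitor that acts mainly on plasmin and other proteases of the matrix. It had the lowest CPM of the 9 in sham of both genotypes. Its rise after injury was the steepest of the 9 in WT, while in KO Tfpi2 (1.60 on the log2 scale) and Plaur (1.59) came out level. In WT sham its CPM was 2.23, 1.90 and 2.38, from 39, 34 and 43 counts. In KO sham it was 1.02, 1.81, 1.51 and 1.92, from 14 to 35 counts. In WT HI it was 25.7, 26.3, 19.0 and 21.8, from 337 to 461 counts. In KO HI it was 8.31, 1.38, 4.96 and 4.42, from 24 to 147 counts. The 4 WT HI libraries formed a tight cluster above all other libraries. The other KO HI libraries lay between that cluster and sham, except KO HI 2, which lay within the sham range.

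The rise was 3.41 ± 0.46 on the log2 scale in WT, or 10.7-fold (edgeR adjusted p = 0.00316), and 1.60 ± 0.40 in KO, or 3.02-fold (adjusted p = 0.0311). After HI, KO was lower than WT by a log2 fold change of -2.28 ± 0.39 (adjusted p = 0.00596). The WT rise and the genotype difference were called with each of the 15 libraries left out in turn and without the 5 neuron-high libraries (3.33 and -1.89). The genotype difference was also called with the endothelial covariate (-1.96, adjusted p = 0.0309) but not with the microglia covariate (-3.66, adjusted p = 0.180). The KO rise was not called by limma-voom (1.34, adjusted p = 0.149), with the microglia covariate (1.04, edgeR adjusted p = 0.274), or without KO sham 3 (1.67, 0.0640), KO sham 4 (1.57, 0.0707), KO HI 1 (1.19, 0.110) or KO HI 3 (1.58, 0.0568). It was also not called with only the KO groups in the fit (1.55, 0.241) or with a replicate block (1.74, 0.145). The replicate block also lost the WT rise (3.59, edgeR adjusted p = 0.0676) and the genotype difference after HI (-2.53, adjusted p = 0.0643).

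Thbd, the thrombin receptor of the vessel lining, varied widely among KO libraries. Its CPM was 135, 143 and 151 in WT sham and 299, 183, 274 and 300 in WT HI, with no overlap between them. It was 39.4, 80.7, 130 and 182 in KO sham and 86.2, 66.7, 50.2 and 215 in KO HI, and these ranges overlapped. KO HI 4, at 215 CPM, stood above WT HI 2. The differences were 0.89 ± 0.51 for HI in WT (edgeR adjusted p = 0.536), -0.05 ± 0.46 for HI in KO (adjusted p = 0.967) and -1.34 ± 0.47 for genotype after HI (adjusted p = 0.0782). The last was called by DESeq2 (-1.35, adjusted p = 0.0175) and limma-voom (-1.55, adjusted p = 0.0483), and by edgeR without KO HI 4 (-1.98, adjusted p = 0.0110) or KO sham 1 (-1.35, adjusted p = 0.0286). It was not called without the 5 neuron-high libraries (-0.83, edgeR adjusted p = 0.122) or with the microglia covariate (-1.65, adjusted p = 0.310), and with the endothelial covariate the value was -0.0024 (adjusted p = 0.998).

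Procr, which presents protein C to thrombomodulin-bound thrombin, was lower in KO after injury. Its CPM was 37.4, 38.3 and 41.3 in WT sham and 50.5, 37.2, 54.0 and 53.1 in WT HI, and 16.3, 29.1, 42.1 and 37.4 in KO sham. In KO HI it was 24.6, 26.6, 16.2 and 28.3, below every WT HI library. KO was lower than WT after HI by -1.02 ± 0.25 on the log2 scale (edgeR adjusted p = 0.0214), while the HI differences were 0.32 ± 0.27 in WT (adjusted p = 0.731) and -0.38 ± 0.25 in KO (adjusted p = 0.417). With the endothelial covariate the genotype difference was -0.17 (adjusted p = 0.443), and with the microglia covariate -1.12 (adjusted p = 0.20). The call was lost without WT HI 1, 4 or 5 or KO HI 1 or 3, with values from -1.04 to -0.88 and adjusted p from 0.0557 to 0.0655. It remained without the 5 neuron-high libraries (-0.90, adjusted p = 0.00742).

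Vwf had the highest CPM of the 9 genes in every library. It was at 1731, 1384 and 1774 CPM in WT sham, and at 607, 1104, 1985 and 1134 in KO sham. In WT HI it was at 3210, 2457, 3061 and 3017, above every other library. In KO HI it was at 1346, 1253, 872 and 1415, inside the KO sham range. KO was lower than WT after HI by -1.27 ± 0.28 (edgeR adjusted p = 0.0153), and the HI differences were 0.85 ± 0.31 in WT (adjusted p = 0.223) and 0.02 ± 0.28 in KO (adjusted p = 0.982). Without WT HI 1 the genotype difference was -1.22 (adjusted p = 0.0527), and without the 5 neuron-high libraries -1.11 (adjusted p = 0.0103).

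Relative to the endothelial markers, Vwf was higher after injury in both genotypes. With their mean as a covariate Vwf was higher after HI by 0.89 in WT (edgeR adjusted p = 0.00319) and by 0.52 in KO (adjusted p = 0.0157), and the genotype difference after HI was -0.36 (adjusted p = 0.184). With the microglia covariate that difference was -1.62 (adjusted p = 0.180). The log2 ratio of Vwf to the endothelial mean averaged 1.41 in WT sham, 1.48 in KO sham, 2.30 in WT HI and 2.08 in KO HI. Every HI library of either genotype had a higher ratio than every sham library of that genotype.

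Plat, the gene of tissue plasminogen activator, ran lower in KO in both conditions and did not respond to injury past the threshold. Its CPM was 356, 284 and 326 in WT sham against 76.5, 145, 221 and 205 in KO sham. After HI it was 525, 289, 333 and 309 in WT against 142, 82.6, 95.1 and 242 in KO. KO and WT libraries did not overlap in either condition. The genotype difference was -0.99 ± 0.39 in sham (edgeR adjusted p = 0.477) and -1.38 ± 0.37 after HI (adjusted p = 0.0299). HI gave 0.18 ± 0.39 in WT (adjusted p = 0.926) and -0.21 ± 0.36 in KO (adjusted p = 0.808).

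The Plat call after HI was lost with the endothelial covariate (-0.32, edgeR adjusted p = 0.532) and with the microglia covariate (-1.96, adjusted p = 0.180). It was also lost without WT HI 1 (-1.15, adjusted p = 0.102), WT HI 4 or 5, or KO HI 1, 2 or 3, with adjusted p from 0.0619 to 0.102. Without the 5 neuron-high libraries it was called (-0.95, adjusted p = 0.0410). In sham, the log2 ratio of Plat to the endothelial mean was from -1.52 to -1.31 in KO and from -0.97 to -0.86 in WT, and 0.875% of all genes had KO ratios wholly below WT there. Pericyte markers were lower in the same comparison, with a median log2 fold change of -0.83 and 7 of 15 at an unadjusted p under 0.05 (0 called), where the endothelial median was -0.48 with 3 of 16 (0 called). Their part in the Plat difference was not tested.

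Plau, the gene of urokinase, was the only one of the 9 with a higher mean in KO (79.0 CPM) than in WT (61.3 CPM) after injury. Its CPM was 32.9, 30.7 and 27.5 in WT sham and 20.9, 31.2, 45.6 and 27.0 in KO sham. It was 55.7, 74.0, 60.3 and 55.2 in WT HI and 101, 58.5, 70.3 and 86.5 in KO HI. All 8 HI libraries exceeded all 7 sham libraries. HI gave 1.34 ± 0.22 in KO (edgeR adjusted p = 0.00579, 2.53-fold) and 1.01 ± 0.24 in WT (adjusted p = 0.0535, 2.02-fold). The genotype difference after HI was 0.37 ± 0.22 (adjusted p = 0.260).

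The WT value of Plau was just short of the threshold, and small changes moved it across. DESeq2 (1.02, adjusted p = 0.00141), limma-voom (1.01, adjusted p = 0.0452) and edgeR without KO sham 1 (1.02, 0.0179), KO sham 4 (1.01, 0.0200), KO HI 1 (1.01, 0.0467), KO HI 2 (1.01, 0.0409) or the 5 neuron-high libraries (1.02, 0.0337) called it. In KO the call was kept in each fit that left out 1 library. That KO call was lost with only the KO groups in the fit (1.302, edgeR adjusted p = 0.0967) and with a replicate block (1.319, adjusted p = 0.0862). With the endothelial covariate, Plau was higher in KO than in WT after HI (0.83, edgeR adjusted p = 0.0408), while with the microglia covariate the value was on the other side of 0 and not called (-0.64, adjusted p = 0.201).

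Plaur, the urokinase receptor, rose in both genotypes. WT sham libraries were at 17.3, 13.2 and 14.1 CPM and WT HI libraries at 62.3, 59.2, 40.3 and 39.1. KO sham libraries were at 5.42, 9.75, 16.2 and 16.8 CPM and KO HI libraries at 46.9, 22.0, 39.8 and 37.0. Every HI library lay above all sham libraries, with KO HI 2 the lowest. The rise was 1.76 ± 0.36 in WT (edgeR adjusted p = 0.0280, 3.38-fold) and 1.59 ± 0.33 in KO (adjusted p = 0.0138, 3.02-fold). KO and WT after HI differed by -0.46 ± 0.32 (adjusted p = 0.326). Markers of other cells moved with HI in KO, where Plau and Plaur rose: 4 of 13 microglia markers and 3 of 12 macrophage, monocyte and neutrophil markers were called higher, and 4 of 10 smooth muscle markers lower. The summed CPM of the microglia markers was from 3984 to 7067 in KO sham and from 7351 to 15862 in KO HI. In WT, 2 of 13 microglia markers were called lower, and 0 of 12 and 0 of 10 in the other lists were called. With the microglia covariate the KO rise of Plau was called (0.96, edgeR adjusted p = 0.0227). Since the microglia means of KO sham and KO HI did not overlap, that fit cannot separate injury from these markers.

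The WT call of Plaur was lost without WT sham 1 (1.88, edgeR adjusted p = 0.113), WT sham 2 (1.68, 0.156), WT sham 3 (1.72, 0.145), WT HI 1 (1.63, 0.0827) or WT HI 2 (1.67, 0.0617). The KO call was lost without KO HI 1 (1.45, 0.0507) and with the microglia covariate (1.16, 0.0947). That KO call was also lost with only the KO groups in the fit (1.55, 0.144) and with a replicate block (1.87, 0.0880). The replicate block lost the WT call too (1.84, 0.161). Both the WT and the KO rise were called without the 5 neuron-high libraries, where WT gave 1.68 (adjusted p = 0.00813).

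Counted by ranges that do not overlap, 6 of 9 genes were higher in WT HI than in WT sham (Plau, Plaur, F3, Thbd, Tfpi2 and Vwf), where 15.9% of all genes were. In KO it was 2 of 9 (Plau and Plaur), against 6.06% of all genes. KO sham lay wholly below WT sham for 2 of 9 (Plat and Tfpi), against 5.49%, and KO HI wholly below WT HI for 5 of 9 (Plat, F3, Tfpi2, Procr and Vwf), against 11.5%.

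Whether the injury response itself differed between genotypes was tested as an interaction. For none of the 9 was the difference called, and 0% of all genes were called by edgeR, with 768 genes at an unadjusted p under 0.05. DESeq2 called 22 genes and limma-voom 0, with 0 of the 9 in each. Of the 9 genes, 2 had an unadjusted p under 0.05 in edgeR. They were Tfpi2, with a response smaller in KO by -1.82 ± 0.58 (edgeR adjusted p = 0.834), and F3 with -1.53 ± 0.62 (adjusted p = 0.932). Next came Vwf with -0.83 ± 0.41 (adjusted p = 0.932). So responses called in one genotype and not in the other, such as Plau in KO, were not shown to differ.

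Because endothelial markers were lower in KO after HI, each gene was also read as a log2 ratio to the mean of the 16 endothelial markers. After HI, Tfpi2 was the only one of the 9 whose KO ratios all lay below the WT ratios (-7.73 to -5.08 in KO, -4.93 to -4.36 in WT), against 0.283% of all genes. Plau was the only one wholly above (-2.44 to -1.29 in KO, -3.60 to -2.87 in WT), against 71.3% of all genes, so a higher ratio was the common case. In sham, Plat lay wholly below and Procr wholly above, against 0.875% and 29.9% of all genes. HI ratios lay above sham ratios for 7 of 9 in WT (all but Plat and Tfpi; 13% of all genes) and for 4 of 9 in KO (Plau, Plaur, Tfpi and Vwf; 7.59% of all genes). The part that cell makeup plays in the CPM differences was not tested beyond these ratios and covariates, which after HI cannot separate it from genotype. Within KO the microglia covariate cannot separate it from injury either.

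**Figure D3:**
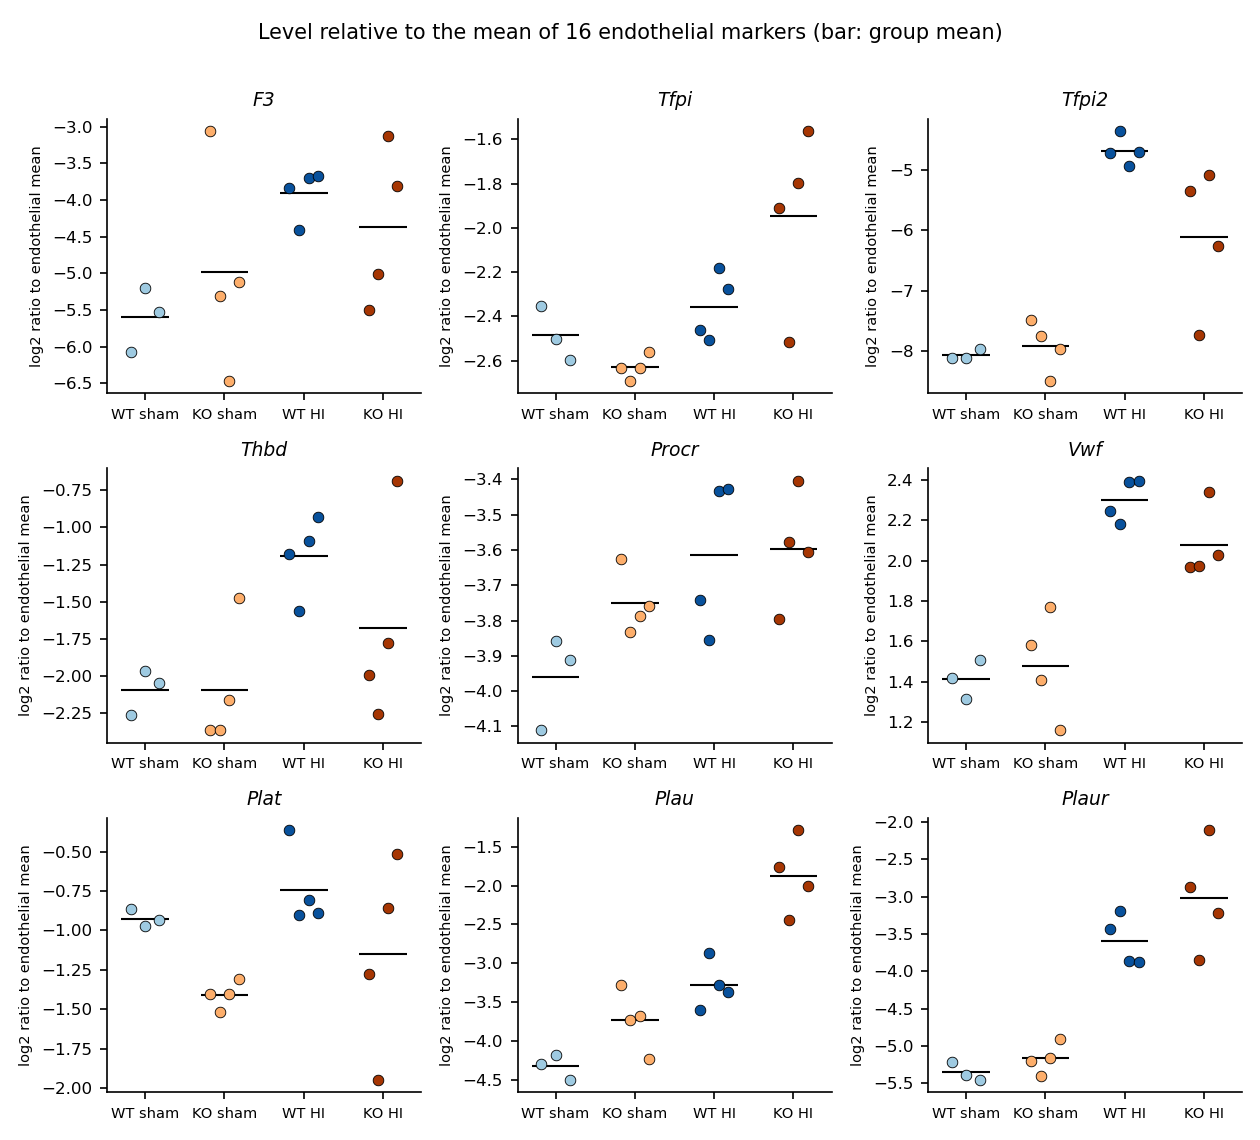
Log2 ratio of each gene to the mean of 16 endothelial markers (y axis) in each library, by group, with a line at the group mean; each panel has its own y scale. Vwf sits higher in HI than in sham for both genotypes (means 2.30 and 2.08 against 1.41 and 1.48), and the KO HI points of Tfpi2 are all below the WT HI points.

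Across the 15 libraries, which differ in all of these markers at once, the log2 CPM of Procr (r = 0.95), Plat (0.89), Tfpi (0.84), Thbd (0.81) and Vwf (0.80) went with the endothelial mean. Tfpi2 (r = 0.31), Plaur (0.18), F3 (0.09) and Plau (-0.13) did so less. With the pericyte mean r was 0.94 for Plat and 0.91 for Procr. With the fibroblast mean it was 0.92 for both Thbd and Tfpi, above their values with the endothelial mean. The neuron mean ran the other way, with -0.93 for Tfpi, -0.84 for both Thbd and Vwf, and from -0.81 to -0.10 for the other 6. With the microglia mean r was -0.67 for F3, -0.64 for Procr, -0.59 for Plat, -0.58 for Vwf, -0.53 for Thbd, -0.37 for Tfpi2, -0.34 for Tfpi and -0.0061 for Plaur, and 0.35 for Plau, the only one of the 9 above 0. With the astrocyte mean r was 0.12 for F3, the only one of the 9 above 0, and from -0.89 for Tfpi to -0.29 for Plau among the others. These are descriptions over libraries of 4 groups, and they carry no test.

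The genes whose log2 CPM followed each member most closely over the 15 libraries were listed by Pearson's r, among genes with a mean of at least 10 CPM. For Tfpi2 they included the chemokine gene Ccl11 (0.96) and the endothelial adhesion gene Sele (0.95). For Vwf they were Igfbp7 (0.98), Lmna (0.98) and Ifitm2 (0.98), and for Procr Cd151 (0.98), Pear1 (0.98) and Lrrc8c (0.98). For Plau they were C5ar1 (0.97), which encodes the receptor of complement C5a, Cd72 (0.97) and Cxcl16 (0.97). For Plaur they were Capg (0.99), Litaf (0.97) and Mvp (0.96), and for F3 Igfbp5 (0.93), Rhou (0.91) and Egfr (0.91). For Plat they were Apold1 (0.98), Rasd1 (0.98) and Adamts7 (0.98), for Thbd Stra6 (0.98), Adamts2 (0.98) and Flnc (0.97), and for Tfpi Man2a1 (0.99), Ggta1 (0.98) and Anxa5 (0.98).

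To compare levels between genes, CPM was divided by the length of the longest annotated transcript. On this per-kilobase scale the order in WT sham was Vwf (185 CPM per kb), Plat (127), Thbd (38.4), Tfpi (27.6), Procr (24.4), Plau (from 11.7 to 14.1 over the libraries), Plaur (9.88), F3 (6.77) and Tfpi2 (1.42). The ranges of Tfpi and Procr overlapped, as did no other neighbours in that order. KO sham kept Vwf (137), Plat (64.1) and Thbd (29.0) on top and Tfpi2 (1.02) at the bottom, with overlap between all neighbours but F3 and Tfpi2. In WT HI, Plaur moved to the fourth place at 33.4 and Tfpi2 reached 15.2, with overlapping neighbours from Plaur down to Tfpi2. In KO HI, Plau stood in the third place at 33.7, behind Vwf (138) and Plat (55.6) and ahead of Thbd (28.1), and its range overlapped those of Plat and Thbd. With the median transcript length instead, Tfpi2 took the fifth place in WT HI and Plaur the seventh, so the middle of this order depends on the length used.

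Of 16 partners of the plasminogen system, 11 could be tested. In WT 1 rose after HI and 1 fell, in KO 3 rose and 1 fell, and after HI 1 was higher and 3 were lower in KO than in WT. These counts were 2 and 1, 4 and 0, and 2 and 2 without the 5 neuron-high libraries. Of all genes, 1.38% rose and 0.444% fell in WT, and 4.88% and 2.13% in KO. After HI 5.96% were higher and 6.46% lower in KO than in WT. Without the 5 libraries these shares were 3.21% and 1.92%, 8.95% and 7.88%, and 12.7% and 10.9%. They stand beside the counts of the lists below as well. Thbs1, which encodes the matrix protein thrombospondin 1, rose by 1.97 ± 0.29 in WT (edgeR adjusted p = 0.00458) and by 1.52 ± 0.25 in KO (adjusted p = 0.00584). Serpini1, encoding neuroserpin, an inhibitor of tPA, fell by 1.02 in WT (adjusted p = 0.0187) and by 0.92 in KO (adjusted p = 0.0123). Without the 5 neuron-high libraries it was called in WT (-1.06, adjusted p = 0.0470) but not in KO (-0.99, adjusted p = 0.0545). Neurons make neuroserpin, and the 13 neuron markers had a median of -1.25 in WT and -0.67 in KO for HI, with 0 called; their part in this result was not tested. Plgrkt, a plasminogen receptor, rose in KO by 0.77 (adjusted p = 0.0121), as did Lrp1, a clearance receptor for activator and inhibitor complexes, by 0.82 (adjusted p = 0.0113). After HI, Plgrkt was higher in KO (0.80, adjusted p = 0.00901), and Anxa2, whose product binds tPA and plasminogen on the cell surface, was lower (-1.003, adjusted p = 0.0314), as were Thbs1 (-0.85, adjusted p = 0.0422) and Serpinb6a (-0.55, adjusted p = 0.0409), whose call was lost without the 5 neuron-high libraries (-0.43, adjusted p = 0.0717). The median of these 11 genes was 0.44, 0.048, -0.14 and -0.55 in the order of comparisons used above. Plg, the gene of plasminogen itself, had a mean of 0 CPM in both WT groups, 0.0325 in KO sham and 0.0141 in KO HI.

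Of 22 genes of coagulation factors and fibrin, 12 could be tested, and 0 were called for HI in either genotype (2 in WT and 2 in KO at an unadjusted edgeR p under 0.05). After HI, F9 was higher in KO (1.93 ± 0.51, edgeR adjusted p = 0.0281) at a mean of only 1.06 CPM, and Tgm2, which encodes a crosslinking transglutaminase, was lower (-0.94 ± 0.26, adjusted p = 0.0341). With the 5 neuron-high libraries left out, 14 genes could be tested, with 1 rising after HI in each genotype and 3 higher and 1 lower in KO after HI. The median of the 12 genes was 0.08, 0.01, -0.01 and -0.12. The fibrinogen genes Fga, Fgb and Fgg were at 0 CPM in all 3 WT sham libraries, and the mean of Fgb, the highest of them after HI, was 0.539 ± 0.0975 CPM in WT HI (SD, n = 4).

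Among 13 anticoagulant genes, 9 could be tested and 0 were called for HI (1 in WT and 4 in KO at an unadjusted edgeR p under 0.05). After HI, Gas6, encoding a vitamin K-dependent ligand, was higher in KO (1.08 ± 0.22, edgeR adjusted p = 0.0112), as was Spint1, a Kunitz inhibitor gene (1.95 ± 0.38, adjusted p = 0.00912). Microglia markers were higher in that comparison too (13 of 13 called), and their part in these 2 calls was not tested. In the 10 libraries left without the neuron-high ones, 1 rose in WT, 1 rose and 1 fell in KO, and 3 were higher and 1 was lower in KO after HI. The median of the 9 anticoagulant genes was 0.22, 0.39, -0.10 and -0.44. Proc, the gene of the protein C that Thbd and Procr act on, was at 0 CPM in all sham libraries.

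Of 9 receptors of thrombin and proteases and the integrins that work with them, 8 could be tested. F2r, the main thrombin receptor, ranged from 88.6 to 115 CPM in sham and from 87.9 to 127 after HI in WT, and from 37.3 to 83.0 and from 37.6 to 62.6 in KO. After HI it was lower in KO by -1.18 ± 0.23 (edgeR adjusted p = 0.00869). Itga5, an integrin subunit that works with Plaur, was lower too (-1.08 ± 0.26, adjusted p = 0.0194). Itgam and Itgb2, the subunits of a leukocyte integrin that binds fibrinogen and Plaur, were higher in KO than in WT after HI (1.55 ± 0.33, adjusted p = 0.0126, and 1.37 ± 0.31, adjusted p = 0.0153) and rose after HI in KO (1.2 ± 0.33, adjusted p = 0.0440, and 1.3 ± 0.31, adjusted p = 0.0253). Microglia express both, and the microglia markers moved the same way (13 of 13 higher in KO after HI); their part in this result was not tested. The KO rise of both was not called without the 5 neuron-high libraries (1.25, adjusted p = 0.0703, and 1.3, adjusted p = 0.0540). When the neuron-high libraries were left out, 1 of the 8 rose after HI in each genotype, and 2 were higher and 2 lower in KO after HI. The median of the 8 genes was 0.24, 0.09, -0.11 and -0.40, and 0 were called for HI in WT (2 at an unadjusted p under 0.05).

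Of 15 partners of Vwf and platelet genes, 10 could be tested. Selp, encoding P-selectin, which is stored with von Willebrand factor in endothelial cells, rose from 1.20 to 2.12 CPM in WT sham to 76.0 to 114 in WT HI, and from 0.987 to 2.43 in KO sham to 4.20 to 26.8 in KO HI. Its log2 fold change was 5.95 ± 0.64 in WT (edgeR adjusted p = 0.000668), 3.53 ± 0.51 in KO (adjusted p = 0.00316) and -2.25 ± 0.46 for genotype after HI (adjusted p = 0.0112). Angpt2, another product stored there, was lower in KO after HI (-1.02 ± 0.28, adjusted p = 0.0330), and Pf4, a platelet factor gene also read in brain macrophages, was higher (1.43 ± 0.33, adjusted p = 0.0168). The platelet genes Gp1ba and Gp6 had group means from 0 to 0.141 CPM. Without the 5 neuron-high libraries 1 of the 10 rose in WT, 2 rose and 1 fell in KO, and 2 were higher and 2 lower in KO after HI. The median of the 10 genes was 0.23, 0.25, 0.29 and 0.27. In sham, 0 genes of these 5 partner lists differed by genotype, with 0 to 1 per list at an unadjusted p under 0.05 in edgeR. After HI, 12 of 16 endothelial and 6 of 15 pericyte markers were also called lower in KO than in WT. Their part in the partner genes called lower there was not tested.

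**Figure D4:**
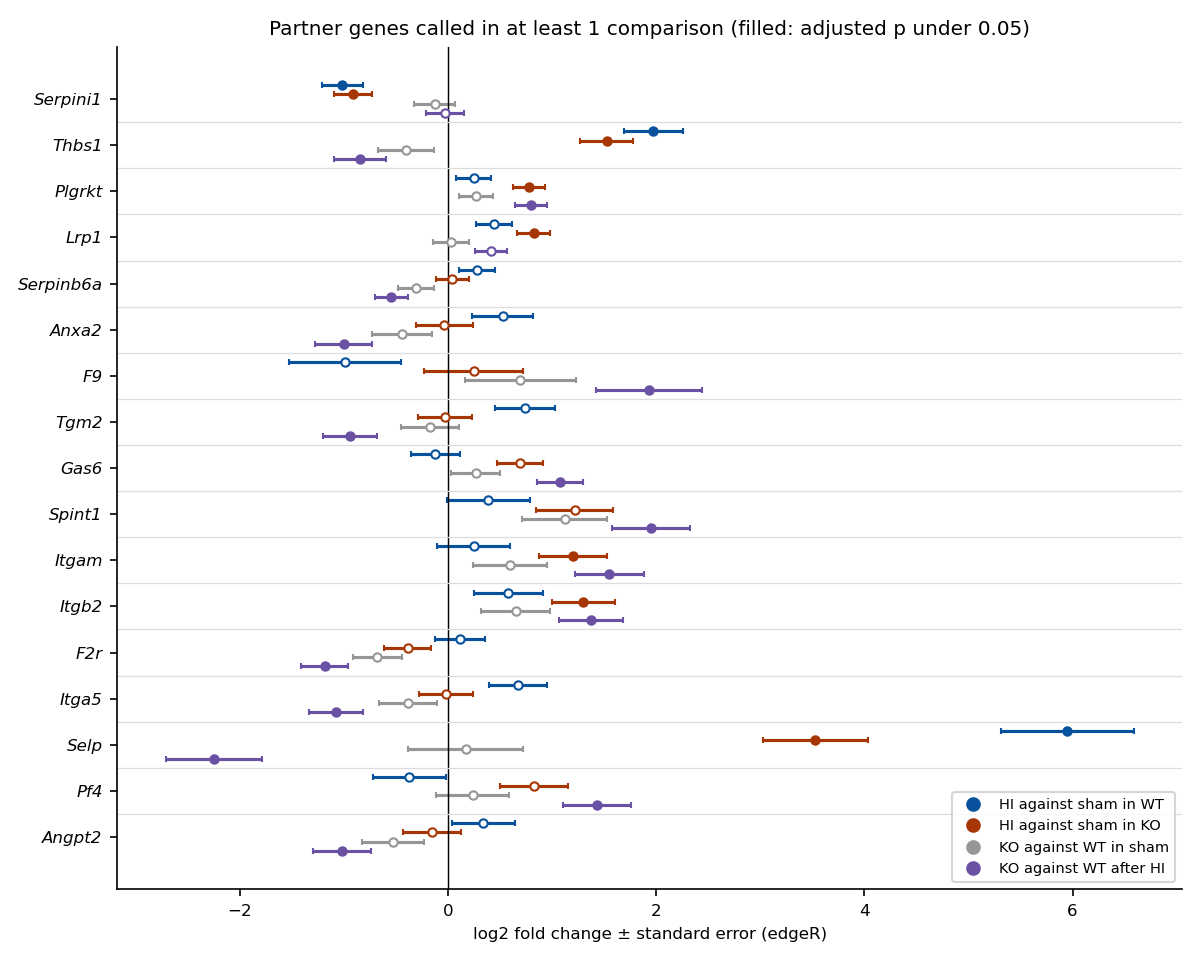
Log2 fold change with its edgeR standard error (x axis) of the 17 partner genes called in at least 1 comparison (y axis); filled points have adjusted p under 0.05. Selp and Thbs1 are filled to the right for HI in both genotypes and to the left for KO against WT after HI, and no point for sham is filled.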

How the data were processed

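The authors deposited 1 table of expected counts per gene for all 15 libraries, identified by Entrez number. Per the submitters' processing notes, the build was mm39 and the tools HISAT2 2.1.0, Bowtie2 2.4.4, RSEM 1.3.1 and DESeq2 1.4.5; their roles are not given in the sources used here. The unit was read from the values: 3.119% to 3.918% of values per library were not whole. Of 65535 lines, 47643 were blank and 17892 had values, of which 17862 matched a RefSeq symbol (GRCm38.p6 tables). Counts were rounded to whole numbers. Genes were filtered with filterByExpr, scaled by TMM and tested with edgeR 4.0.16 (quasi-likelihood, 4 group means over all 15 libraries, Benjamini-Hochberg over 14853 genes, threshold 0.05, two-sided; R 4.3.3). The standard error is the absolute log2 fold change divided by the root of F. The CPM values use TMM library sizes, and log2 CPM a prior count of 2. The coefficient of biological variation was 38.6%. Scripts were tested on simulated data.

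Alternatives were other size factors, no filter, DESeq2 1.42.0, limma-voom (limma 3.58.1), only the compared groups, a replicate block, covariates for the mean of endothelial or microglia markers, each library left out, and, added after seeing the data, 5 neuron-high libraries left out. The 9 genes and all lists were chosen with earlier results of these data known. All 9 genes are named in every comparison, called partners up to 4 per list and comparison, and the 3 genes closest to each member by Pearson's r; 1 partner gene is not reported here. Replicates within a group differed by more than counting noise (chi-square per degree of freedom from 11.7 to 400).

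Transcript lengths and 3' UTRs came from GENCODE vM21, and promoters and the microRNA from RefSeq. Strand was not stated, so overlapping antisense reads cannot be told apart.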

Additional observations from a re-analysis of the deposited data

Results flagged for a closer look

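F3 in WT HI 2 was at 25.3 CPM, while the other 3 WT HI libraries were at 44.8 to 47.3. The gap made up 0.887 of the group's range, above Dixon's 95% critical value for 4 samples. It was the only value so far from its group among 27 groups of 4 libraries tested (9 genes in 3 groups), and chance gives about 1 in 20. Without this library the genotype difference of F3 after HI was -1.57 (edgeR adjusted p = 0.0357). The microglia markers of WT HI 2 summed to 5828 CPM, against 2217 to 2415 in the rest of WT HI. This library was also the lowest of WT HI for Thbd, Procr, Tfpi, Vwf and Plat, and the highest for Plau and Tfpi2. The part of cell makeup in its F3 value was not tested.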

How the results depend on the processing

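edgeR called 271 genes for HI in WT, 1041 genes for HI in KO, 2 genes for genotype in sham, 1844 genes for genotype after HI and 0 genes for the difference of responses, and of the 9 genes 2 for HI in WT, 3 for HI in KO, 0 for genotype in sham, 5 for genotype after HI and 0 for the difference of responses. DESeq2 called 782 genes for HI in WT, 1932 for HI in KO, 32 for genotype in sham, 3399 for genotype after HI and 22 for the difference of responses, and of the 9 genes 4 for HI in WT. With only the groups compared in the fit, the test called 2442 genes for HI in WT, 16 for HI in KO and 1 for genotype in sham, and of the 9 genes 6 for HI in WT and 0 for HI in KO. With the endothelial covariate the test called 1029 genes for HI in WT, 4839 for HI in KO, 6 for genotype in sham, 2973 for genotype after HI and 6 for the difference of responses, and of the 9 genes 5 for HI in WT, 5 for HI in KO and 3 for genotype after HI. With the microglia covariate the test called 701 genes for HI in WT, 257 for HI in KO, 1 for genotype in sham and 1 for genotype after HI, and of the 9 genes 1 for HI in KO and 0 for genotype after HI. Without the 5 neuron-high libraries, an alternative chosen after seeing the data, the test called 750 genes for HI in WT, 2459 for HI in KO, 5 for genotype in sham and 3440 for genotype after HI. With total counts in place of TMM the test called 1 genes for genotype in sham. limma-voom called 0 genes for genotype in sham. Leaving out each of the 15 libraries in turn gave from 48 to 554 for HI in WT, from 355 to 1927 for HI in KO, from 1 to 2 for genotype in sham, from 481 to 3605 for genotype after HI and from 0 to 2 for the difference of responses over all genes, and from 1 to 4 for HI in WT, from 1 to 3 for HI in KO and from 1 to 6 for genotype after HI of the 9.

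Whether replicate numbers pair the samples is not given by the labels, and correlations did not settle it. Of 15 pairs with the same number 10 correlated above 0.1 in their deviations from the group means, from -0.784 to 0.793. Pairs with different numbers ran from -0.765 to 0.896. With a replicate block the test called 16 for HI in WT, 73 for HI in KO, 1 for genotype in sham and 21 for genotype after HI over all genes and 0 for HI in WT, 0 for HI in KO and 0 for genotype after HI of the 9, and the direction turned for Tfpi (-0.15) for HI in WT, Plat (0.032) and Thbd (0.36) for HI in KO, Plau (-0.017) and F3 (-0.077) for genotype in sham and Plaur (0.037) for the difference of responses.

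Of 1116 values of single genes under alternatives, 975 kept direction and side of the threshold, 58 were no longer past it, 25 newly were and 58 turned. Among the turned values 0 passed the threshold, and 1 (F3 for genotype after HI, microglia covariate) had passed it before; the cause was not tested. With only the groups compared the direction turned for Vwf (-0.023) for HI in KO. With the endothelial covariate the direction turned for Plat (0.35), F3 (-0.10), Thbd (0.68) and Procr (0.072) for HI in KO, F3 (-0.41), Thbd (0.25), Procr (0.10) and Vwf (0.0066) for genotype in sham, Plaur (0.23) and Tfpi (0.43) for genotype after HI and Plat (0.15) and Plaur (0.24) for the difference of responses. With the microglia covariate the direction turned for Tfpi (-0.059) and Vwf (-0.1) for HI in KO, Plau (-0.35) for genotype in sham, Plau (-0.64) and F3 (0.21) for genotype after HI and Plau (-0.29) and Tfpi (-0.34) for the difference of responses. Without the 5 neuron-high libraries the direction turned for Vwf (-0.19) for HI in KO and Plaur (0.067), F3 (-0.14), Thbd (0.12) and Procr (0.0068) for genotype in sham. In limma-voom the direction turned for Plau (-0.0065) and F3 (-0.049) for genotype in sham. Leaving out 1 library turned these values, whose range over the 15 such fits was -0.052 to 0.27 for Plat (HI in WT), -0.20 to 0.54 for F3 (HI in KO), -0.69 to 0.33 for Thbd (HI in KO), -0.099 to 0.36 for Tfpi (HI in KO), -0.21 to 0.36 for Vwf (HI in KO), -0.20 to 0.19 for Plau (genotype in sham), -0.27 to 0.37 for F3 (genotype in sham), -0.41 to 0.041 for Plaur (the difference of responses) and -0.18 to 0.27 for Tfpi (the difference of responses).

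The other size factors and the missing filter changed no count of calls by over 1.5 times, except as given. For lengths, the median transcript changed the order of levels, and Spearman's rho kept C5ar1 for Plau and Igfbp7 for Vwf while listing other genes beside them. Counts of Tfpi2 in sham, 14 to 43, limit the precision of its fold changes.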
